A study of Mus musculus with 6 samples.

Results

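Of the 3019 features listed in the authors' comparison of siCon- and siH19-transfected myotubes, 39 carried a symbol that matched developmental or immediate early transcription factor families. They were found by name alone, so that the 39, called factor genes below, include Nfatc2ip, which is no transcription factor of the family itself. A feature was kept when 1 of its gene symbols began with a family name such as Hox, Fox, Sox, Klf, Egr, Fos, Jun, Atf, Creb, Tbx, Runx, Irf, Stat, Nr, Tead, Nfat, E2f, Meis, Pbx, Gata, Ets, Etv, Ebf or Cebp, followed for most of these families by the number of the member. The cells of both groups were C3H myoblasts, a single mouse line, grown to confluence and moved to medium with horse serum so that they fused into myotubes. At 40 h of differentiation they received either a control siRNA (siCon, 3 libraries) or an siRNA against the H19 long non-coding RNA (siH19, 3 libraries), and total RNA was taken 48 h later and depleted of rRNA. The table analysed here gives 1 pooled level per group, as log2 FPKM (fragments counted per kilobase, adjusted for sequencing depth). Every value below is thus the authors' value for a group of 3 libraries, the spread between libraries and their depth are unknown, and no test across libraries could be run. The transfections were made in triplicate per the methods of the study, though the labels do not tie each library to a culture. Features reached the table because the authors had called them different between the groups, so that a gene not listed may be unchanged, too low to test or near the limit of the call.

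Transcription factors are proteins that bind short DNA sequences and set how often nearby genes are transcribed. Developmental families such as the Hox, Sox, T-box, forkhead, Runx and TALE homeodomain (Pbx and Meis) factors act for days and help to fix the identity of a cell. Immediate early factors such as Fos, Egr and the Nr4a receptors are instead switched on within minutes of a growth signal, stress or calcium entry, from promoters that need no newly made protein, and their RNAs are short-lived. In skeletal muscle both kinds work beside the myogenic regulators, with TEAD factors at contractile gene promoters, NFAT factors downstream of calcium, and FOXO factors in atrophy.

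The siRNA target was checked first. H19 (XLOC_026027) stood at 11.20 log2 FPKM in siCon and 7.50 in siH19, which left 7.69% of the siCon level. Of 13 myotube marker genes, 12 were listed, in 11 features with siCon levels from 6.91 to 11.81 log2 FPKM, and all 11 features were higher in siH19, by 0.44 to 2.28 on the log2 scale. The largest differences among them were those of the cardiac actin Actc1 (7.70 and 9.98 log2 FPKM), the myogenic regulator Myog (7.79 and 9.22) and myoglobin, Mb (7.61 and 8.95). Col1a1 was the only listed gene of 12 markers of fibroblast- or adipocyte-lineage cells, at 4.81 and 5.22 log2 FPKM, and none of 9 endothelial and blood cell markers and none of 10 markers of dividing cells was listed. These marker levels moved with the factor levels described below, and their part in them was not tested. In RNA from whole cultures, more cells of a type and more RNA per cell cannot be told apart.

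Most of the 39 factor genes were higher after H19 knockdown. The level was higher in siH19 for 31 and lower for 8. Among all 3019 listed features 62.8% were higher, and among those with a gene symbol 60.1%. The factors thus followed the direction of the whole table, with a larger share (79.5%). A difference of at least 1.5-fold was reached upwards by 16 factor genes, or 41.0%, against 37.4% of all listed features and 30.8% of the 2549 listed features with a gene symbol. Downwards it was reached by 3, or 7.69%, against 16.9% of all listed features and 16.3% of those with a symbol. When differences were taken relative to the median of all listed features, 2 factor genes passed 1.5-fold upwards and 8 downwards. With that centring 28 factor genes lay above the median and 11 below. The same shift moves every listed feature, and its counts past the fold over all of them were not made. These centred counts are thus not compared with the table. The median difference, siH19 minus siCon, was 0.51 log2 units over the factor genes, 0.45 over all listed features and 0.41 over those with a symbol. The share past 1.5-fold upwards is thus near that of all listed features and above that of listed features with a symbol. Listing in the table itself rests on the same contrast, and nothing particular to transcription factors is read from these counts. Their differences were moderate. They ran from -0.73 for Fos to 1.16 for Egr3, while listed genes with a symbol ran from -3.70 to 4.22. Members just past 1.5-fold were Klf12 and Tbx15, both at 0.59, and those just short of it were Runx3 and Sox11, both at 0.55.

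**Figure D1:**
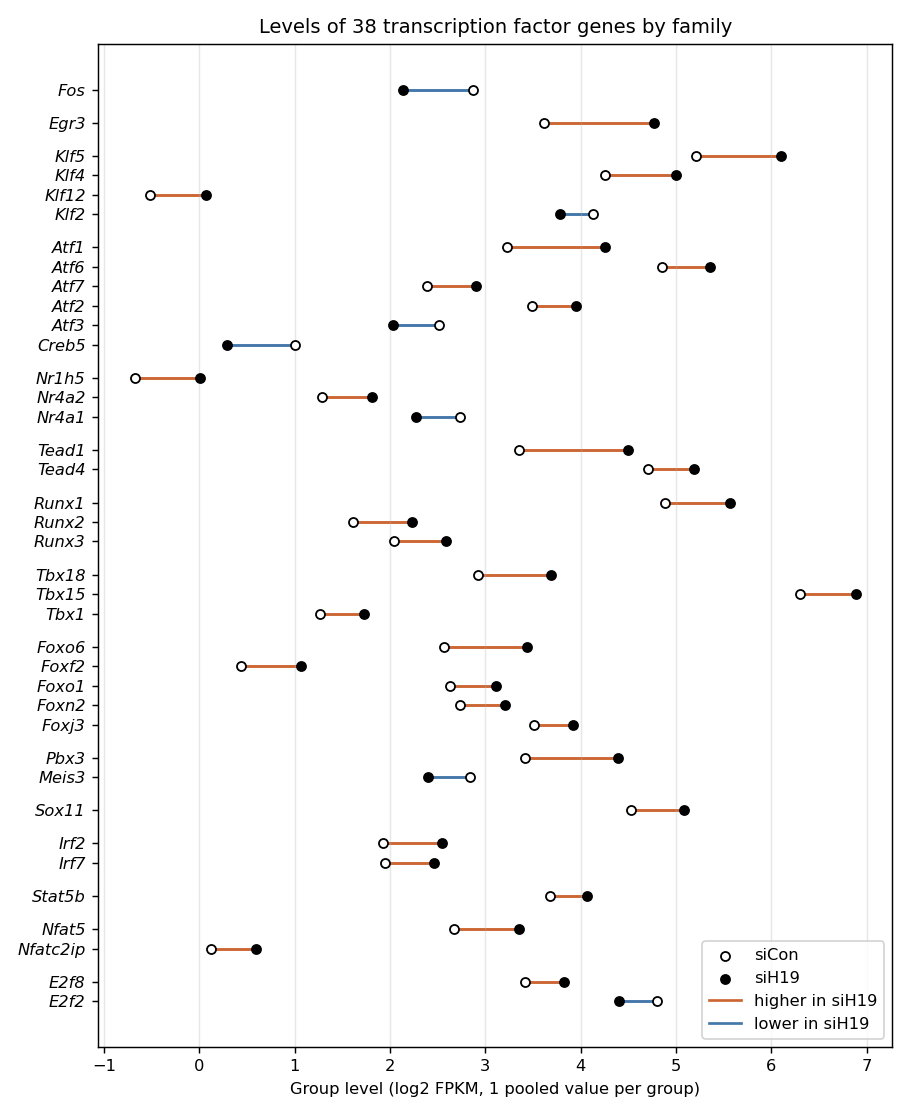
Level of 38 of the 39 factor genes in siCon (open circles) and siH19 (filled circles), in log2 FPKM with 1 pooled value per group and no error available, grouped by family. Orange lines mark 31 genes that were higher in siH19 and blue lines 7 that were lower, and levels run from Nr1h5 at -0.68 in siCon to Tbx15 at 6.89 in siH19.

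**Figure D2:**
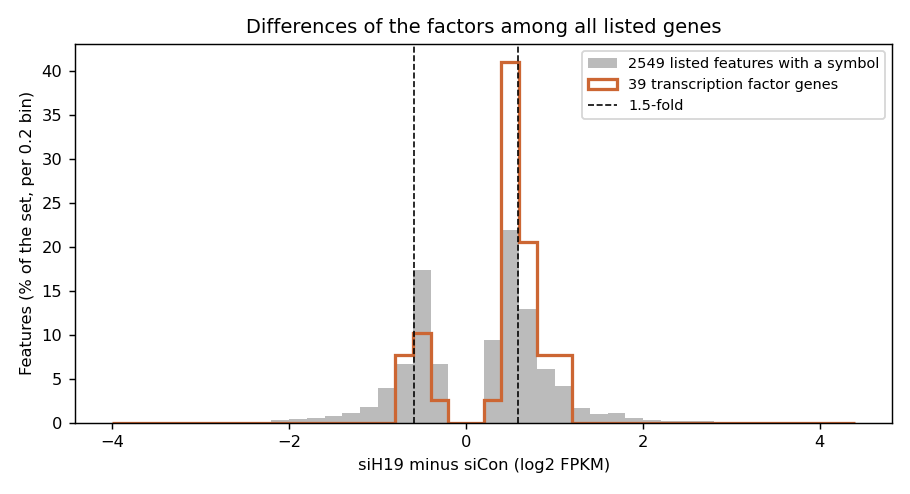
Share of features (percent of each set, in bins of 0.2) by difference in log2 FPKM, siH19 minus siCon, for the 2549 listed features with a symbol (grey) and the 39 factor genes (orange outline). Dashed lines mark 1.5-fold, no listed feature differs by less than 0.31, and the factor genes lie between -0.73 and 1.16.

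The factors were of low to moderate abundance. In siCon 21 stood between 1 and 10 FPKM, 16 between 10 and 100 and 2 below 1, and none passed 100. Tbx15, a T-box factor of limb and trunk mesenchyme and muscle, was the most abundant at 78.8 FPKM in siCon and 119 in siH19. Klf5 followed at 37.0 and 68.6 FPKM. The lowest was Nr1h5 at 0.624 and 1.01 FPKM. Without the spread between libraries, neighbours in this order such as Runx1 (29.4 FPKM in siCon), Atf6 (28.8 FPKM) and E2f2 (27.9 FPKM) cannot be ranked.

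The families were not listed evenly. GENCODE M21 annotates 257 protein-coding genes whose symbols match, of which 39 (15.2%) were listed, against 2423 of 21924 (11.1%) for all protein-coding genes. Of 20 families, 15 had a listed member and 5 had none. None of 39 Hox genes was listed, and neither was any of 8 Ets and Etv, 7 Cebp, 6 Gata or 4 Ebf genes. The Runx family was the most fully listed, with Runx1, Runx2 and Runx3 present and Runx1t1, the fourth gene with a matching symbol, absent. Of the families with at least 2 listed members, 5 (Tead, Runx, Tbx, Fox and Nfat) had every listed member higher in siH19, with Foxj3 the exception relative to the median of all listed features. Of the Nfat pair only Nfat5 is such a factor. The other 6 (Klf, Atf and Creb, Nr, Pbx and Meis, Irf, and E2f) had members in both directions.

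**Figure D3:**
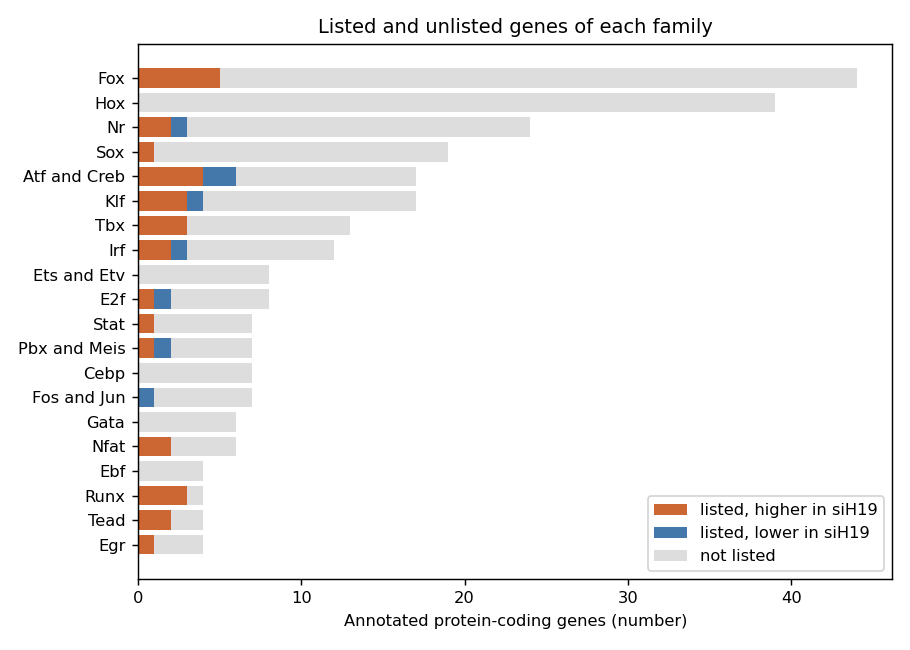
Number of annotated protein-coding genes in each family that were listed and higher in siH19 (orange), listed and lower (blue) or not listed (grey). All 5 listed Fox genes (Foxj3 not so once centred on the median of listed features), all 3 listed Runx and all 3 listed Tbx genes were higher, while none of the 39 Hox genes was listed.

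Immediate early genes were split in direction. Of 7 factor genes commonly counted among them, 3 were higher in siH19 (Egr3, Klf4 and Nr4a2) and 4 were lower (Fos, Atf3, Nr4a1 and Klf2), against 28 higher and 4 lower among the other 32 factor genes. These 7 were picked out with their values known, so the split is a description only. Egr3, a zinc finger factor needed for muscle spindles, had, with Tead1, one of the largest differences of all 39 (XLOC_008231, chromosome 14, 70076854 to 70082726). It went from 12.2 to 27.3 FPKM, a log2 difference of 1.16 or 2.23-fold, and 157 of the 1533 listed genes with a symbol that were higher had a larger one. Fos, which pairs with Jun proteins in the AP-1 complex, lay at the other end (XLOC_005921, chromosome 12, 85473901 to 85477270). Its level was 7.31 FPKM in siCon and 4.41 in siH19, a log2 difference of -0.73. No other Fos or Jun gene was listed, nor was any other Egr gene.

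Within families the direction crossed. Klf4, a zinc finger factor used in reprogramming to pluripotency, stood at 4.25 log2 FPKM in siCon and 5.00 in siH19, while Klf2, known for its response to blood flow in endothelium, stood at 4.13 and 3.78 log2 FPKM. The 2 were nearly level in siCon, with a ratio of Klf4 to Klf2 of 1.09, and 2.33 in siH19. The orphan nuclear receptors Nr4a1 (Nur77) and Nr4a2 (Nurr1) drew closer together. Nr4a1 was 6.63 FPKM in siCon and 4.82 in siH19, Nr4a2 was 2.45 and 3.51, and their ratio went from 2.71 to 1.38. Atf3, a stress-induced bZIP factor, was 5.70 FPKM in siCon and 4.08 in siH19. Differences of Klf2, Atf3, Nr4a1 and Nr4a2 were below 1.5-fold.

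The promoters of these pairs are shown so that members of 1 family with opposite directions can be read side by side, and Fos is added as the member that was lowest relative to siCon. RefSeq windows for GRCm38.p6 were found for 29 of the 39 genes. Those without an entry include Egr3, Klf5, Tead1, Pbx3, Tbx15, Atf6, Foxo6, Foxn2 and Tead4. Each sequence is the 250 bases before the annotated start, 5′ to 3′ on the strand of the gene. Capitals mark every match, on either strand, to the motifs searched: the core TGACG of the cAMP response element (CRE), the GC box GGGCGG, the E-box CAGCTG, the TATA box TATAAA and the TEAD motif GGAATG. Fos lies at chr12:85473640-85473889 (plus strand), Klf2 at chr8:72318812-72319061 (plus), Klf4 at chr4:55532476-55532725 (minus), Nr4a1 at chr15:101266596-101266845 (plus) and Nr4a2 at chr2:57124004-57124253 (minus). The Nr4a1 window precedes a RefSeq start that lies inside the assembled locus, which begins at 101254224.
Fos: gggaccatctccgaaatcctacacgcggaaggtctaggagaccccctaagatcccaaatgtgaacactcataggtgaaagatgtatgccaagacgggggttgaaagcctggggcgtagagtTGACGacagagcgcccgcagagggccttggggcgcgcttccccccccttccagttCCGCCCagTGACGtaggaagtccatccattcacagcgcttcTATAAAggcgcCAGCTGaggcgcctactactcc
Klf2: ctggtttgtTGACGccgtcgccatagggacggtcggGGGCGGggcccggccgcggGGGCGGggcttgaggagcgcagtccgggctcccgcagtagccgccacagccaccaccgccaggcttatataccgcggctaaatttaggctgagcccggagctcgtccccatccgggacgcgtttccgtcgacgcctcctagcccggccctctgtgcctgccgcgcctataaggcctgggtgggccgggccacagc
Klf4: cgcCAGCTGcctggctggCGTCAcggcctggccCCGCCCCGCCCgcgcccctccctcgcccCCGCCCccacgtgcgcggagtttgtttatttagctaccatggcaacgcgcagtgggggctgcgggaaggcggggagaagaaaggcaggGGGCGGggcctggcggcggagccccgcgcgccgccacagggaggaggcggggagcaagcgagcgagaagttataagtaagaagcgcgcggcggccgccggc
Nr4a1: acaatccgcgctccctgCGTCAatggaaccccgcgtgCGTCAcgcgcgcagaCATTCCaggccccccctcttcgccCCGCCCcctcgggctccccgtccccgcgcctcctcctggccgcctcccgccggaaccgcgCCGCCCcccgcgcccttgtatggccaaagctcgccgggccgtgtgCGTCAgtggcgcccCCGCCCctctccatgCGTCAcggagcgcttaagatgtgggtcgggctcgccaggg
Nr4a2: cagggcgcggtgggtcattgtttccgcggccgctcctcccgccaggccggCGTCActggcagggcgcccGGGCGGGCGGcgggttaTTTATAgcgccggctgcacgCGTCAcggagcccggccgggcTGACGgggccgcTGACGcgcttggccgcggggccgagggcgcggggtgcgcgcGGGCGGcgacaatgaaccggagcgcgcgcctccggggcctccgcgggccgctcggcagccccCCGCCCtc

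The CRE core was found in all 6 immediate early factor genes with a window, Atf3 included, whatever their direction, and in 5 of the 23 other factor genes with a window. Nr4a1 and Nr4a2 hold 4 matches each, Fos 2, and Klf2 and Klf4 1 each. The 2 matches of Fos begin 129 and 66 bases before the start, and its TATA box begins 33 bases before it. By window, the core was in 31.4% of those of the factor genes, 23.7% of those of listed genes and 17.8% over all windows of this length. The core holds a CpG. The printed windows were 58.4% GC in Fos, 71.2% in Klf2, 74.0% in Klf4, 74.4% in Nr4a1 and 80.0% in Nr4a2. Median GC was 65.2% over windows of factor genes and 52.4% over all windows. The part of base composition in the split of 6 against 23 genes was not tested, and the 6 were picked with their values known. The GC box was in 60.0% of the 35 windows of the factor genes, against 54.4% of those of listed genes and 32.7% of all windows. No factor gene window held the CArG box of serum response factor, which 1.40% of windows of listed genes and 1.47% of all windows held. None held the FOXO motif GTAAACA either (2.32% and 3.17%). Sequence further than 250 bases before the start was not searched, and Egr3 had no window. Absence from a window is thus not absence from the regulatory sequence of a gene. The full CRE TGACGTCA and the AP-1 motif TGANTCA, searched on both strands, were each in 1 factor gene window, that of Creb5, or 2.86% of these windows. The CRE was in 2.32% of windows of listed genes and 1.55% of all windows, and the AP-1 motif in 5.95% and 6.75%. The E-box was in 20.0% of the factor windows, 13.9% of those of listed genes and 13.0% of all windows. For the TEAD motif these shares were 8.57%, 11.9% and 12.6%, for the ETS motif CCGGAAG 5.71%, 8.83% and 6.91%, and for the TATA box 11.4%, 8.11% and 12.4%. The factor windows were rich in CpG, with a median observed-to-expected ratio of 0.81 against 0.67 for windows of listed genes and 0.37 for all windows. That ratio was 0.82 over the 26 windows of factor genes higher in siH19 and 0.70 over the 9 windows of those that were lower. Every full CRE also holds the core, and some GC boxes overlap each other in Klf4 and Nr4a2. A match describes letters in a window and shows no binding.

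Immediate early genes that are not in these families were listed in both directions too. Of a list of 37, 10 were listed, 6 of them higher and 4 lower in siH19, and 4 and 3 of these passed 1.5-fold. Over all listed features 62.8% were higher, and 37.4% and 16.9% passed 1.5-fold upwards and downwards, so that these upward counts are near the background. Nothing particular to a list is read from such counts here or for the lists below. Btg2, an antiproliferative gene, stood at 26.5 FPKM in siCon and 10.8 in siH19, and Dusp2, a phosphatase of MAP kinases, at 2.95 and 1.51. Sik1, a kinase induced by cAMP, stood at 26.0 FPKM in siCon and 46.9 in siH19. Ctgf, a matricellular protein and TEAD target, stood at 18.3 and 32.2 FPKM.

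**Figure D4:**
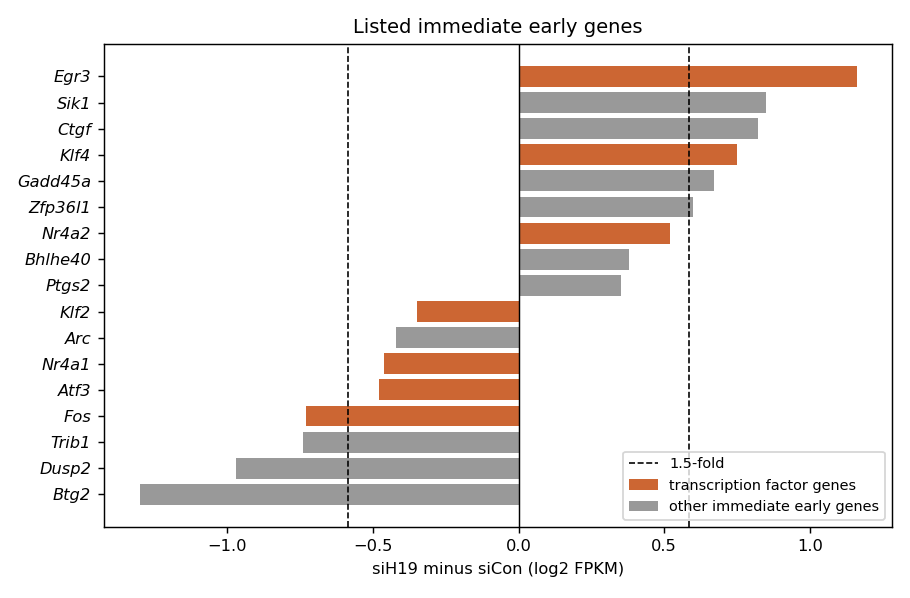
Difference in log2 FPKM, siH19 minus siCon, for the 17 listed immediate early genes, of which 7 are factor genes (orange) and 10 are from the list outside the families (grey), with dashed lines at 1.5-fold. Bars run from Btg2 at -1.30 to Egr3 at 1.16, and genes of both colours lie on either side of 0.

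The Atf and Creb factors are bZIP proteins that bind cAMP response elements and answer kinase and stress signals. Of 6 listed, 4 were higher in siH19 and 2 lower. Atf1, a close relative of Creb1 that is activated by phosphorylation, had the third-largest upward difference of the 39 (XLOC_009458, chromosome 15, 100227846 to 100263225). Its level was 3.23 log2 FPKM in siCon and 4.25 in siH19, a 2.03-fold difference. Atf6, which is released from the endoplasmic reticulum membrane when proteins misfold, went from 28.8 to 41.1 FPKM. The stress-kinase targets Atf2 (11.2 and 15.5 FPKM) and Atf7 (5.24 and 7.46 FPKM) differed by 0.46 and 0.51 log2 units. Creb5, in a feature that joins it with 9430076C15Rik, was lower, at 2.00 FPKM in siCon and 1.22 in siH19. The ratio of Atf1 to Atf3 was 1.65 in siCon and 4.66 in siH19. Of 20 partners of AP-1 and CREB, 3 were listed. Crtc1, a CREB coactivator, was at 2.20 FPKM in siCon and 3.78 in siH19, the large Maf factor Maf at 13.7 and 7.94, and the AP-1 repressor Jdp2 at 39.4 and 27.1. None of 18 ETS factors with other names was listed.

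TEAD factors bind the MCAT element of muscle genes and carry the coactivators YAP and TAZ. Tead1 differed by 1.15 log2 units, which the rounding of the table does not separate from the 1.16 of Egr3 (XLOC_024473, chromosome 7, 112679320 to 112907131). It stood at 3.35 log2 FPKM in siCon and 4.50 in siH19, or 10.2 and 22.6 FPKM. Tead4, which is induced during myoblast differentiation, went from 26.2 to 36.5 FPKM, and the ratio of Tead1 to Tead4 from 0.390 to 0.620. Of a list of 18 TEAD partners and targets that does not hold Ctgf, 4 were listed, all higher in siH19 and none by 1.5-fold. Ctgf, counted among the immediate early genes above, was past it. Wwtr1, which encodes TAZ, was at 79.9 FPKM in siCon and 103 in siH19, and the target Ankrd1 at 355 and 526. The muscle cofactor Vgll2 was at 3.58 and 5.21 FPKM, and Amotl2, which restrains YAP, at 29.9 and 37.5.

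Runx proteins bind DNA together with Cbfb, and direct blood, bone and neuronal fates. Runx1, which is also induced in denervated muscle, went from 29.4 to 47.5 FPKM (0.69 log2 units). Runx2, the bone factor, went from 3.05 to 4.69 FPKM (0.62), and Runx3 from 4.11 to 6.02 FPKM (0.55). Runx1 had the highest of the 3 levels in both groups, and Runx2 and Runx3 are not ranked, since no spread is known and the Runx2 locus runs past the gene. Cbfb was not listed. Of a list of 12 transcriptional cofactors, drawn up for Runx, Pbx and Meis proteins, 3 were listed, all higher in siH19. Only Tle4, a corepressor at 0.801 and 1.32 FPKM, is known to act with Runx proteins. Zfpm1 and Zfpm2, which differed by 0.58 and 0.43 log2 units, are known as cofactors of GATA factors.

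Among the T-box genes Tbx18, known from the epicardium and the ureter, went from 7.57 to 12.9 FPKM (0.77 log2 units). Tbx15 went from 78.8 to 119 FPKM (0.59) and Tbx1, a regulator of head muscle, from 2.39 to 3.32 FPKM (0.47). The TALE homeodomain factors went opposite ways. Pbx3, whose family binds DNA with Hox and Meis proteins, stood at 10.6 FPKM in siCon and 21.0 in siH19 (XLOC_015822, chromosome 2, 34171452 to 34372728). Meis3 stood at 7.16 FPKM in siCon and 5.28 in siH19. Sox11, a single-exon gene of neuronal and mesenchymal progenitors, went from 23.1 to 33.8 FPKM. The Krüppel-like factor Klf5 went from 37.0 to 68.6 FPKM (XLOC_008303, chromosome 14, 99298691 to 99315012), a log2 difference of 0.89, and Klf12, a repressor, from 0.697 to 1.05 FPKM.

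All 5 listed forkhead genes were higher in siH19, although Foxj3 was at -0.04 log2 units relative to the median of all listed features. Foxo6, a member of the insulin-restrained FOXO group, went from 5.94 to 10.9 FPKM, and Foxo1, the FOXO best known from muscle atrophy, from 6.19 to 8.63 FPKM. The ratio of Foxo6 to Foxo1 was 0.959 in siCon and 1.26 in siH19, too close to 1 in siCon to rank them without a spread, and the assembled Foxo6 locus extends 93.8 kb past the gene. Foxf2, a mesenchymal factor, went from 0.44 to 1.07 log2 FPKM. Foxn2 went from 6.63 to 9.19 FPKM and Foxj3, which acts on Mef2c in muscle, from 11.4 to 15.1. Of 15 genes known as FOXO targets 8 were listed, 5 higher and 3 lower, a split close to that of all listed features (62.8% higher). The atrophy ligase Trim63 (MuRF1) was lower, at 46.9 FPKM in siCon and 32.9 in siH19, as was Txnip, an inhibitor of thioredoxin, at 43.1 and 26.2. Those higher included Ccng2 (16.8 and 24.8 FPKM) and Pdk4, a brake on pyruvate oxidation (5.17 and 7.36 FPKM). Txnip was the only one of the 8 past 1.5-fold.

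Of the nuclear receptors with systematic names, Nr1h5, a relative of the bile acid receptor, was the third one listed, at -0.68 log2 FPKM in siCon and 0.01 in siH19. Of 31 receptors with other names and coregulators, 7 were listed, 2 higher and 5 lower in siH19. Among all 3019 listed features 1123 were lower, and so few genes are given as a description only. Esrrb, an orphan receptor of pluripotent cells, was at -0.79 and -2.82 log2 FPKM, and Rxrg, a retinoid X receptor of skeletal muscle, at -1.63 and -2.91, all below 1 FPKM. Ppargc1a, the coactivator of mitochondrial biogenesis, was at 1.16 FPKM in siCon and 0.611 in siH19.

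Irf2, a repressor of interferon-driven transcription, went from 3.81 to 5.82 FPKM and Irf7, an activator of type I interferon genes, from 3.86 to 5.50. Stat5b, which carries growth hormone signals, went from 12.8 to 16.7 FPKM, the smallest upward difference of the 39 (0.38 log2 units, and -0.07 relative to the median of all listed features). Nfat5, the factor of the response to high salt, went from 6.36 to 10.2 FPKM, and Nfatc2ip, a protein that binds an NFAT factor and is no such factor itself, from 1.09 to 1.51. Of 13 calcineurin-NFAT regulators the phosphatase subunit Ppp3cb (23.9 and 30.9 FPKM) and the kinase Dyrk1a (18.9 and 26.4 FPKM) were listed. Of the cell cycle factors, E2f2, an activator, was at 27.9 FPKM in siCon and 21.1 in siH19, and E2f8, a repressor, at 10.6 and 14.1. Relative to the median of all listed features both were lower, with E2f8 at -0.04 log2 units and E2f2 at -0.85.

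The 39 genes lie on 15 chromosomes. A few are near each other. Klf5 and Klf12 are 551 kb apart on chromosome 14 and were both higher, as were Foxj3 and Foxo6, 544 kb apart on chromosome 4. Opposite signs were found in 3 neighbouring pairs. On chromosome 15, Nr4a1 (-0.46 log2 units) lies 991 kb from Atf1 (1.02) and 1253 kb from Atf7 (0.51), and on chromosome 4, Runx3 (0.55) lies 994 kb from E2f2 (-0.40). The assembled loci of factor genes that were higher spanned a median of 69.9 kb and those of the lower ones 20.4 kb. Over all listed features with a symbol these medians were 40.7 and 24.9 kb. Across the 39 genes the rank correlation of span with difference was 0.22, and across the 2549 it was 0.13. Both are weak and are given as a description, since genes of a table share libraries and normalization. Only Creb5 combined a span over 100 kb with a lower level, against 9 factor genes of that span that were higher. Long loci were mostly higher in the whole table too, with 347 higher and 145 lower among listed features with a symbol.

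**Figure D5:**
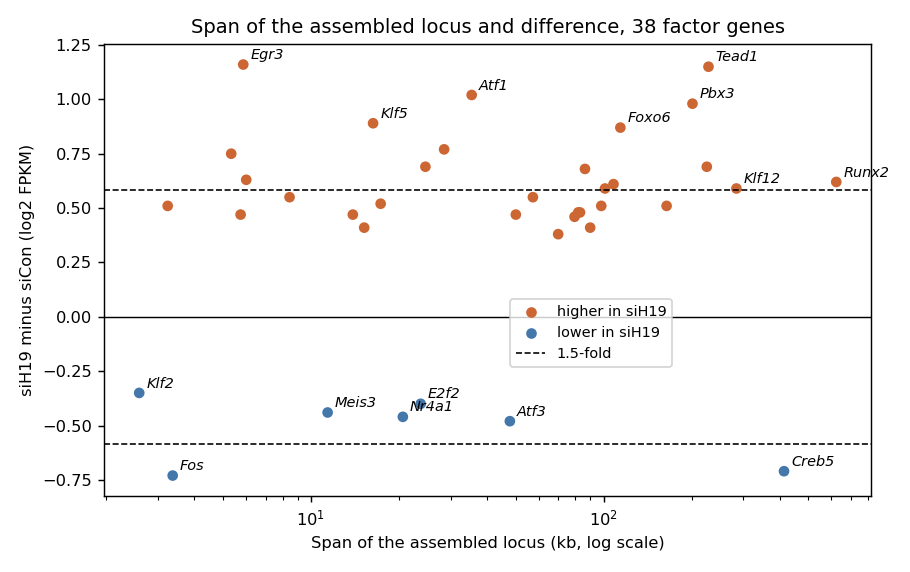
Span of the assembled locus (kb, log scale) against the difference in log2 FPKM, siH19 minus siCon, for 38 of the 39 factor genes, with dashed lines at 1.5-fold. The 31 higher genes (orange) lie across the whole range of spans, and of the 7 lower genes shown (blue) Creb5 is the only one above 100 kb.

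The loci limit a few of these values. In 21 of the 39 the assembled locus overlaps another annotated gene, in 16 of them one on the opposite strand. The library kit keeps strand, but whether it was used in estimating levels is not given in the sources used here. The Runx2 locus extends 305 kb upstream of the annotated gene and takes in Supt3 on the other strand, so that its level, like that of Foxo6, may include RNA from outside the gene. No other listed feature overlaps any of the 39 loci.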

How the data were processed

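RNA-seq libraries of siCon- and siH19-transfected C3H myotubes (3 per group) were made with a stranded total RNA kit after rRNA depletion and sequenced in 76-cycle paired ends. The authors mapped reads to mm10 with TopHat (app 1.0.0, with TopHat2 2.0.7 in the submitters' processing notes) and assembled and compared transcripts with Cufflinks and Cuffdiff 2.1.1. The gene annotation is not given in the sources used here. The authors deposited log2 FPKM, rounded to 2 decimals, with 1 value per group and features called different only. Columns of fold changes and q values were not used. Differences were computed here from the 2 group values and carry a rounding error of up to 0.01. A fold of 1.5 marks larger differences. Every factor gene but 1, which is not reported here, is named, and from each gene list those past that fold, at most the 3 with the largest differences. Other list genes in the text were chosen after their values were seen. Members, lists and motifs were chosen with earlier results of these data known, the 7 immediate early factor genes and the promoters of Klf4, Nr4a1 and Nr4a2 after their values were seen. The promoters of Fos and Klf2 were likewise picked by the size or direction of their differences. Locus starts, which the table counts from 0, were raised by 1. Genes were matched to GENCODE M21 and promoters to RefSeq (GRCm38.p6). Python 3.11.15, pandas 2.3.3, numpy 2.4.6, scipy 1.17.1 and matplotlib 3.10.9 were used, and counting was tested on simulated data. Alternatives were another fold, a filter on low levels, pseudocounts, centring, and leaving out joined features or partner proteins.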

Additional observations from a re-analysis of the deposited data

How the results depend on the processing

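The number of factor genes past the fold followed the cut-off. At 2-fold it was 3 higher (Egr3, Tead1 and Atf1) and 0 lower, and at a log2 cut-off of 0.32, as without one, 31 higher and 8 lower. With log2(FPKM + 1) it was 10 higher and 1 lower. Counts over all listed features were not made at 2-fold or with pseudocounts, so nothing particular to the factors is read from these numbers. With log2(FPKM + 0.1), a filter on low levels, joined features left out or Nfatc2ip left out, both counts stayed within 1.5 times those reported. Centring on the median of all listed features, a shift of 0.45, gave 2 higher and 8 lower and a median difference of 0.06, with 28 factor genes above that median and 11 below. The shift moves every listed feature alike, and centred counts past the fold over all of them were not made for comparison. Stat5b (-0.07), Foxj3 (-0.04) and E2f8 (-0.04) then changed sign. That median comes from called features only and is no estimate of a shift over all genes. No paired analysis was possible because each group has 1 pooled value, and for the same reason no library could be left out.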
